A study of Mus musculus with 2 samples.

Results

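Ihh, Pthlh, Pth1r, Ptch1, Gli1, Gli2, Gli3, Hhip, Col10a1 and Panx3 are genes of the Hedgehog and PTHrP signals of growing cartilage and of the hypertrophy that these signals time. They were taken by symbol, and each of the 10 matched 1 row among the 21849 genes of the files. Their transcripts were followed in costal-cartilage-derived stem cells (CDSCs), which the study obtained from the rib cartilage of neonatal C57BL/6J-background mice, either CD45.1 or ZsGreen, by type II collagenase digestion and sorting for CD45- CD51+ cells. One library held primary CDSCs and the other held cultured CDSCs at passages 2 to 3, and both were made with the 10x Chromium 3' v3.1 kit. The labels name bone marrow as the tissue, and the number of animals behind a library is not given in the sources used here. Since there was 1 library per group, no value below has a replicate check, no test was run, and all intervals are exact 95% intervals for counting error only.

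A barcode counted as a cell with at least 500 genes, at least 1000 UMIs (unique molecular identifiers, each standing for 1 captured transcript) and at most 10% mitochondrial UMIs. This left 11746 primary cells with 137148874 UMIs and a median of 10026.5 UMIs per cell, and 5338 cultured cells with 330129909 UMIs and a median of 56864.5. In the cultured library 5460 barcodes (50.6%) were left out, against 150 in primary CDSCs. The libraries shared 32 barcode sequences, 15 of them among the cells. All 13 chondrocyte markers reached 10 CPM, counts scaled to a common library total, in primary CDSCs, where they summed to 90826 CPM, whereas 4 of 13 did so in cultured CDSCs, where they summed to 1083 CPM. The ZsGreen transcript had 60957 counts in primary CDSCs and 0 in cultured CDSCs, so this reporter differed together with culture, and the 2 cannot be told apart.

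In the growth plate, Ihh is secreted by cells about to enlarge and is received by the Ptch1 receptor, which frees Smo to act on the Gli transcription factors. Ptch1, Gli1 and Hhip are themselves switched on by the signal, so their transcripts serve as its usual readout. PTHrP, the product of Pthlh, acts through the receptor Pth1r to hold chondrocytes in a dividing state and to delay hypertrophy, during which cells make type X collagen from Col10a1.

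Of the 9 genes that reached 1 CPM in either library, 5 were lower by 4-fold or more after culture and 1 was higher by as much. The 5 lower genes were Ihh, Pthlh, Pth1r, Gli1 and Gli2, and the higher gene was Col10a1. Of these, Ihh, Pthlh and Gli1 reached 1 CPM in primary CDSCs only, and Col10a1 in cultured CDSCs only. Of all 12839 genes at that level, 7.48% were at least 4-fold lower and 12.6% at least 4-fold higher. The median log2 ratio of cultured over primary CPM was -2.39 for the 9 genes and 0.36 for all genes tested, or 0.17 for the latter by TMM scaling, which centres the ratios of most genes. Hhip stayed under 1 CPM in both libraries and was left out of these counts. With a minimum of 10 CPM, only 4 genes were left, 2 of which (Pth1r and Gli2) were at least 4-fold lower. The share of all genes at that minimum is not given here, so this count has no background beside it.

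The bases before the start sites of both ligands and of Col10a1 are shown because these genes differed between the libraries in opposite directions. Promoter sequences from RefSeq (GRCm38.p6), each 300 bases from 250 before to 50 after a start site, matched 8 of the 10 genes with 10 promoters. No promoter was available for Gli1 or Panx3. Below are the 250 bases before the start of Ihh (chr1:74951673-74951922, minus strand), of Pthlh (chr6:147264014-147264263, minus strand, a start inside the annotated gene) and of Col10a1 (chr10:34389731-34389980, plus strand), with capitals marking a GC box (GGGCGG on either strand) or a TATA box (TATAAA).
Ihh: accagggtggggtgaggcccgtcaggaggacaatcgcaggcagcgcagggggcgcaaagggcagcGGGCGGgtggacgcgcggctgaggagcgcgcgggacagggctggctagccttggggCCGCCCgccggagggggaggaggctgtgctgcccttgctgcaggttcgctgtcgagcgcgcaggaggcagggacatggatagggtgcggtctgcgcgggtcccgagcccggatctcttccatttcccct
Pthlh: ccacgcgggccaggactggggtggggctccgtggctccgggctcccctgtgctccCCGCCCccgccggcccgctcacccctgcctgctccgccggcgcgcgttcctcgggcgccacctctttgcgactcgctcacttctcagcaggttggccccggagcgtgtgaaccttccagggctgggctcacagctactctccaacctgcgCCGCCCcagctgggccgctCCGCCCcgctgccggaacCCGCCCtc
Col10a1: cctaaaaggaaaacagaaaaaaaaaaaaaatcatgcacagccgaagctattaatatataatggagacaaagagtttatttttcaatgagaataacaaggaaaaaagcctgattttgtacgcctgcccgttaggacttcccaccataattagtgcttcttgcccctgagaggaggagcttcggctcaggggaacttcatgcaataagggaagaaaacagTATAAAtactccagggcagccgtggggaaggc

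Over the 300 bases, GC content was 72.7% for Ihh, 74.0% for Pthlh and 44.3% for Col10a1, against a median of 52.7% over 32851 promoters. A GC box lay in 8 of the 10 promoters and in 35.7% of all promoters. The TATA box was found only in that of Col10a1 among the 10, and in 13.6% of all promoters. The Gli site GACCACCCA was in none of the 10 promoters, which do not include that of Gli1 or Panx3, and in 0.253% of all promoters. The cAMP response element TGACGTCA was in that of Hhip (1.79% of all promoters), and the Runx site TGTGGT in that of Gli3 (16.8%). Each motif was searched on both strands.

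Ihh (ENSMUSG00000006538, chromosome 1, 74945315 to 74951672, minus strand in GRCm38) encodes the Hedgehog ligand of cartilage. It had 579 counts (4.22 CPM, 3.88 to 4.58) in primary CDSCs and 27 counts (0.0818 CPM, 0.0539 to 0.119) in cultured CDSCs. This was a log2 ratio of -5.69 (-6.30 to -5.13), or 51.6-fold lower. After thinning every cell to 5000 UMIs, Ihh was found in 168 of 10959 primary cells (1.53%, 1.31 to 1.78) and in 2 of 4543 cultured cells (0.0440%, 0.00533 to 0.159). Unthinned, the shares were 3.10% and 0.412%. Most positive primary cells (273 of 364) held a single UMI, but 41 cells held 3 or more and accounted for 206 of the 579 counts, with up to 10 in a cell. Thinning left out 787 primary and 795 cultured cells. Of the other Hedgehog ligands, Shh had 0 counts in both libraries, with exact upper bounds of 0.0269 CPM in primary CDSCs and 0.0112 CPM in cultured CDSCs. Dhh had 46 and 96 counts (0.335 and 0.291 CPM).

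Pthlh (ENSMUSG00000048776, chromosome 6, 147252101 to 147264183, minus strand) encodes PTHrP. It had 530 counts (3.86 CPM) in primary CDSCs and 38 counts (0.115 CPM) in cultured CDSCs, a log2 ratio of -5.07 (-5.58 to -4.59). Both ligands were thus over 4-fold lower in cultured CDSCs in each of the 9 alternative settings, between -5.89 and -5.53 for Ihh and between -5.66 and -4.91 for Pthlh. Thinned cells with Pthlh made up 1.85% (203 cells) of the primary and 0.0220% (1 cell) of the cultured library, and the unthinned shares were 3.79% and 0.599%. Its counts were spread thinly, with 377 of 445 positive primary cells holding 1 UMI and 10 cells holding 3 or more.

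Pth1r (ENSMUSG00000032492, chromosome 9, 110722085 to 110747145, minus strand), the receptor of PTHrP, had 8452 counts (61.6 CPM, 60.3 to 63.0) in primary CDSCs. In the cultured library it had 2596 counts (7.86 CPM, 7.56 to 8.17), 7.84-fold lower, with a log2 ratio of -2.97. Thinned shares were 26.2% of primary and 4.58% of cultured cells, and unthinned shares 45.9% and 24.0%. Myl3, a muscle myosin gene on the opposite strand that overlaps Pth1r, had 131 and 31 counts.

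Ptch1 (ENSMUSG00000021466, chromosome 13, 63508328 to 63573598, minus strand), the Hedgehog receptor, had 3199 counts (23.3 CPM) in primary CDSCs and 8756 counts (26.5 CPM) in cultured CDSCs. Its log2 ratio was 0.19 (0.13 to 0.24) by total UMIs and -0.01 by TMM scaling, so its direction depended on the scaling. Thinned shares were 9.68% (9.13 to 10.3) and 12.1% (11.2 to 13.1), and unthinned shares 17.9% and 54.6%. Ptch1 was thus close to level between the libraries, whereas Gli1, another readout of the same signal, was not.

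Gli1 (ENSMUSG00000025407, chromosome 10, 127329882 to 127341974, minus strand), the transcription factor that the Hedgehog signal induces, had 547 counts (3.99 CPM, 3.66 to 4.34) in 444 primary cells. In the whole cultured library it had 4 counts in 4 cells (0.0121 CPM, 0.00330 to 0.0310), a log2 ratio of -8.36 (-10.24 to -6.998). The fold was 329 with an interval of 128 to 1212, which the few cultured counts make wide. After thinning, 192 of 10959 primary cells (1.75%, 1.51 to 2.02) and 0 of 4543 cultured cells held Gli1, and a share of up to 0.0812% lay within the interval of the latter. Unthinned shares were 3.78% and 0.0749%. Arhgap9, which overlaps Gli1 on the opposite strand, had 37 and 17 counts.

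Gli2 (ENSMUSG00000048402, chromosome 1, 118834132 to 119053619, minus strand), the main activator of Hedgehog targets, had 10243 counts (74.7 CPM) in primary CDSCs and 4708 counts (14.3 CPM) in cultured CDSCs. It was 5.24-fold lower, with a log2 ratio of -2.39 (-2.44 to -2.34), and its thinned shares were 29.2% and 7.15% (unthinned 47.3% and 38.3%). Gli3 (ENSMUSG00000021318, chromosome 13, 15463235 to 15730026, plus strand), which mostly represses targets when no signal is present, had 25941 counts (189 CPM) and 49948 counts (151 CPM). Its log2 ratio was -0.32 (-0.34 to -0.30), with thinned shares of 56.6% and 49.3% (unthinned 77.0% and 82.0%). The Gli genes thus differed in size of change, from Gli3 within 1.25-fold to Gli1 with almost no cultured counts.

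Hhip (ENSMUSG00000064325, chromosome 8, 79965851 to 80058006, minus strand), a membrane protein that binds and blocks Hedgehog ligands, had 87 counts (0.634 CPM, 0.508 to 0.782) in primary CDSCs and 44 counts (0.133 CPM, 0.0968 to 0.179) in cultured CDSCs. Its log2 ratio was -2.25 (-2.81 to -1.71). The thinned shares of 0.219% (0.140 to 0.326) and 0.132% (0.0485 to 0.287) overlapped, as did the unthinned shares of 0.536% and 0.468%, so a difference in the number of positive cells was not detectable at this depth.

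Col10a1 (ENSMUSG00000039462, chromosome 10, 34389981 to 34397085, plus strand), the collagen of hypertrophic cartilage, had 82 counts (0.598 CPM, 0.476 to 0.742) in primary CDSCs and 1027 counts (3.11 CPM, 2.92 to 3.31) in cultured CDSCs. The log2 ratio was 2.38 (2.05 to 2.72), and the 9 alternatives lay between 2.18 and 2.77. No primary cell held more than 2 of its UMIs, whereas 68 cultured cells held 3 or more and the highest held 19. Thinned shares were 0.338% (0.238 to 0.465) and 1.72% (1.36 to 2.14), and unthinned shares 0.621% and 13.1%. Nt5dc1, which spans the same interval on the opposite strand, had 13.6 and 27.0 CPM, and without stated strand settings its reads and those of Col10a1 cannot be told apart in full.

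Panx3 (ENSMUSG00000011118, chromosome 9, 37659902 to 37669235, minus strand), a channel protein of prehypertrophic chondrocytes and osteoblasts, had 184 counts (1.34 CPM) in primary CDSCs and 262 counts (0.794 CPM) in cultured CDSCs. The log2 ratio of -0.76 (-1.03 to -0.48) turned to 0.27 when primary cluster 6, described next, was left out. Thinned shares were 0.474% and 0.462%, and unthinned shares 1.15% and 3.67%.

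**Figure D1:**
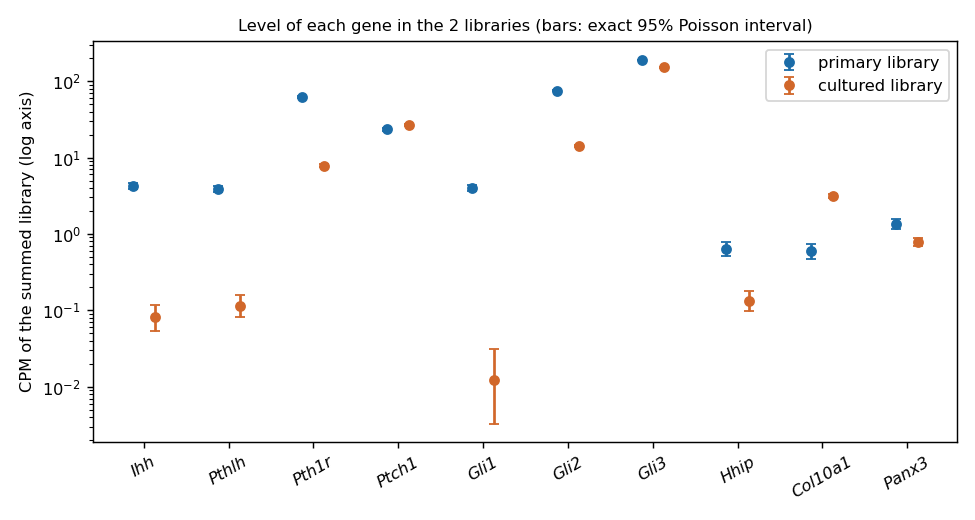
Level of each of the 10 genes in the summed primary and cultured library, in CPM on a log axis, with exact 95% Poisson intervals (1 library per group). Gli1 lies at 3.99 and 0.0121 CPM, Ihh at 4.22 and 0.0818 CPM, and Col10a1 alone is over 4-fold higher in cultured CDSCs, while Ptch1 and Gli3 nearly coincide.

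The primary cells fell into 9 clusters when the 10 genes and the pathway genes below, 118 in all, were kept out of the genes used for clustering. By their leading genes, cluster 1 (2690 cells) had Ppargc1a and Clu, cluster 2 (2515 cells) Trf and Cytl1, cluster 3 (1765 cells) Acta2 and Grem1, cluster 4 (1764 cells) Slc22a4 and Srxn1, and cluster 5 (1639 cells) Pde10a and Gpnmb. Cluster 6 (752 cells) had Slc35f1, Runx3 and Wnt5b, cluster 8 (186 cells) the mitotic genes Pbk and Cenpf, and cluster 9 (146 cells) Pknox2 and Jazf1. Cluster 7 (289 cells) mixed mast cell genes (Tpsb2, Cma1), an endothelial gene (Gpihbp1) and connective tissue genes (Thbs4, Col1a1), and was not named.

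Cluster 6 was singled out for its Gli1 level, and it also held the highest levels of Ihh, Ptch1 and Panx3. It contained 294 of the 547 Gli1 counts (53.7%), at 29.7 CPM (26.4 to 33.3) against 1.99 CPM in the other primary cells. It also contained 100 of the 184 Panx3 counts (54.3%), at 10.1 CPM against 0.660, and 778 of the 3199 Ptch1 counts, at 78.7 CPM against 19.0. For Ihh it had 9.81 CPM (7.95 to 12.0) against 3.79, with the next cluster, cluster 3, at 5.46 (4.59 to 6.44). Beside Gli1, 2 of the other 7 genes with at least 1 CPM in the library (Ptch1 and Panx3) were at least 4-fold higher in it, and 0.329% of 11850 genes were. Panx3 had 0.660 CPM in the other cells and so reached 1 CPM in the library only through cluster 6. Ptch1 was also among its 10 leading genes by fold.

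Of 19 hypertrophy and mineralization genes with at least 1 CPM, 3 were at least 4-fold higher in cluster 6, with a median log2 ratio of 0.01. Runx3, a transcription factor of chondrocyte maturation, had 87.3 CPM against 5.06 in the other cells, the ligand Wnt5b 58.8 against 4.24, and Dlx5 4.85 against 0.943. Of these 3, Dlx5 reached 1 CPM in the library only through cluster 6. The bone transcription factor Sp7, under 1 CPM in the library, had 2.63 against 0.330, whereas Spp1 (19.8 against 55.7), Smpd3 (33.5 against 53.6) and Foxa2 (3.44 against 5.37) were lower. Of 6 Hedgehog target genes, 1 was 4-fold higher, the cyclin Ccnd1 (45.2 against 8.96), and Foxf1 (6.67 against 13.7), Foxc2 (42.1 against 57.1) and Ccnd2 (111 against 153) were lower. Of 10 genes of the resting zone and perichondrium, 1 was 4-fold higher, the WNT inhibitor Sfrp5 (30.03 against 1.24), and 9 had ratios below 1. Among these were Prg4, the lubricin of joint surfaces (14.7 against 93.8 CPM), Grem1, a BMP antagonist (5.06 against 32.1), and Clu (169 against 636). Col10a1 had 1 count in cluster 6. The PTHrP receptor and Gli3 were not raised with them, as Pth1r had 59.5 CPM there, the median over the clusters, and Gli3 was at its lowest over the clusters, with 156 CPM (148 to 164).

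Cluster 7 was singled out for its Hhip level, with 42 of the 87 counts (48.3%) and 15.9 CPM (11.4 to 21.5) against 0.335 in the other cells. It was also highest for Pthlh, at 14.0 CPM (9.85 to 19.3), although its interval overlapped that of cluster 1 (8.92 CPM, 7.70 to 10.3), which held 192 of the 530 Pthlh counts. Ptch1 at 41.2 CPM and Gli1 at 10.6 CPM ranked next after cluster 6. Scube2, which helps to release Hedgehog ligands, had 158 CPM against 8.75 in the other cells. None of the 8 genes with at least 1 CPM in the library was 4-fold higher, against 4.95% of 11850 genes. When cluster 7 was clustered again, 5 of 8 groups carried connective tissue markers and had 5.10 to 48.1 CPM of Hhip. Hhip was not confined to them, with 15.6 CPM (3 counts) in an unnamed group led by Chodl and Cilp. It also had 20.7 CPM (2 counts) in 9 smooth muscle and pericyte cells. A group of 26 cells led by mast and endothelial genes had 0 counts of Hhip, Pthlh and Gli1, 9 of Ptch1 (30.7 CPM) and 30 of Gli3 (102 CPM). At 5000 UMIs, 7 of its 18 cells (38.9%, 17.3 to 64.3) held Gli3, 2 held Pth1r and 1 held Ptch1. Their median was 9403 UMIs per cell, and the intervals of these 18 cells include the shares of all primary cells. By summed level, however, the 26 cells lay below the whole library for Gli3 (69.1 to 146 against 189 CPM), Pth1r (23.9 CPM, 9.60 to 49.2, against 61.6) and Gli2 (30.7 CPM, 14.0 to 58.3, against 74.7), whereas the interval of Ptch1 included its library level.

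Each remaining gene had its own order of clusters. Ihh in cells with 3 or more UMIs was found in cluster 3 (15 cells), cluster 2 (11 cells) and cluster 6 (8 cells) of 41 such cells, so that its strongest cells were not those of the Gli1 cluster alone. Col10a1 had 41 of its 82 counts in cluster 3, at 1.60 CPM (1.15 to 2.17). The cluster 9 value of 2.71 CPM rested on 3 counts (0.559 to 7.92). Pth1r ran from 45.3 CPM in the mitotic cluster 8 to 91.2 CPM (74.3 to 111) in cluster 9, the narrowest spread of the 10 genes together with that of Gli3. Gli2 was highest in cluster 9 (189 CPM) and cluster 1 (132 CPM) and lowest in cluster 4 (46.5 CPM).

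**Figure D2:**
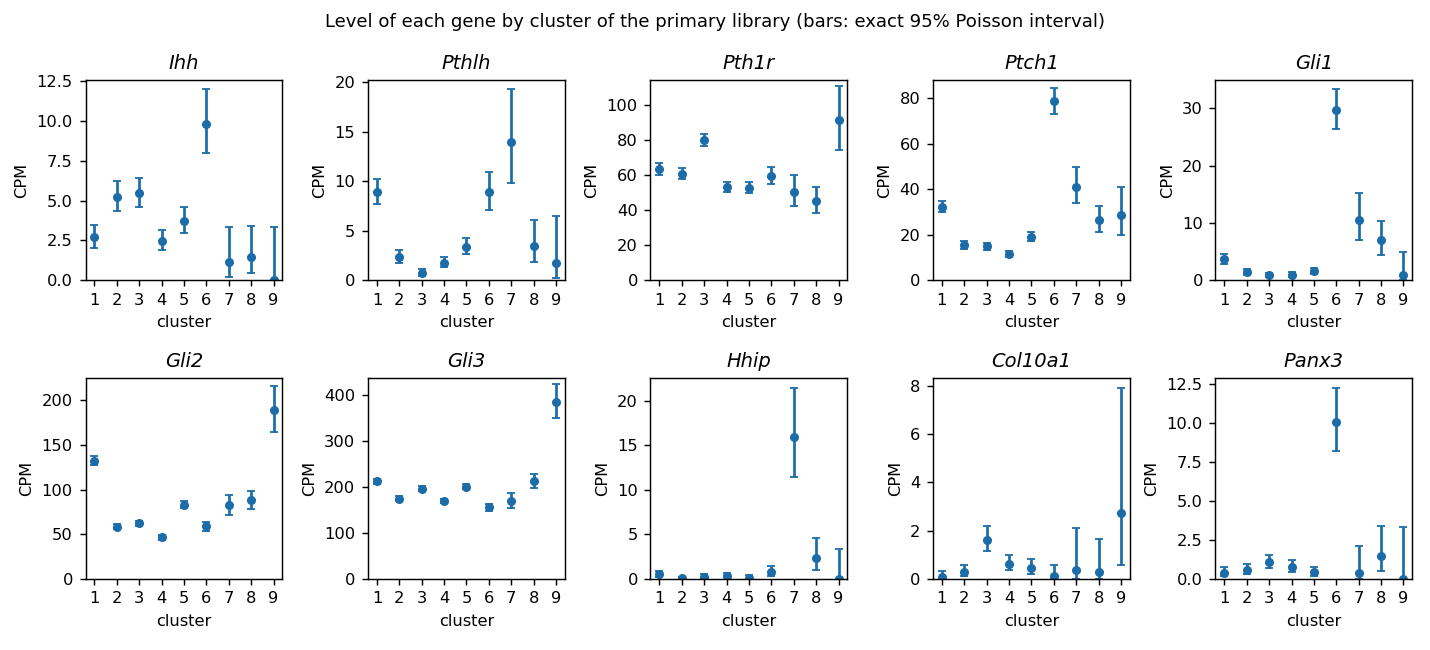
Level of each gene, in CPM, in the 9 clusters of the primary library, with exact 95% Poisson intervals. Cluster 6 stands highest for Gli1 (29.7 CPM), Ptch1 (78.7 CPM) and Panx3 (10.1 CPM), and cluster 7 for Hhip (15.9 CPM), while Pth1r runs from 45.3 to 91.2 CPM and Gli3 from 156 to 386 CPM.

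Single primary cells with Gli1 held Ptch1 more often than the rest did, outside cluster 6. Of the 192 thinned cells with Gli1, 64 (33.3%, 26.7 to 40.5) also held Ptch1, against 9.26% (8.72 to 9.82) of the cells without Gli1. Outside cluster 6 the shares were 33.3% (23.6 to 44.3) and 8.05%. Inside cluster 6 they were 33.3% (24.4 to 43.2) and 28.8% (25.3 to 32.5) and overlapped, so that Ptch1 was common there whether or not Gli1 was caught. Gli2 was held by 29.2% of the cells with Gli1 and by 29.2% of those without.

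Cells with Pthlh held Ptch1 in 21.7% (16.2 to 27.98), against 9.46% of cells without Pthlh. Cells with Ihh held it in 15.5% (10.4 to 21.8) against 9.59%, but the share was 5.26% (2 of 38 cells) among cells with at least 2 Ihh UMIs. Ihh and Pthlh were found together in 3 cells, which was 1.79% of the cells with Ihh, against 1.85% of those without. Cells with Panx3 (52 cells) held Ptch1 in 25.0% (14.0 to 38.9) against 9.61%, Ihh in 7.69% (2.14 to 18.5) against 1.504%, and Gli2 in 9.62% (3.20 to 21.0) against 29.3%. The shares for Pthlh, Ihh and Panx3 are given without a split by cluster. Cluster 6 held 54.3% of the Panx3 counts and the highest Ihh and Ptch1 levels. Cluster 7 was highest for Pthlh and next for Ptch1. A link within cells and shared cluster membership therefore cannot be told apart here. None of the 37 cells with Col10a1 held Ihh, Pthlh, Gli1 or Panx3, and for each of these a share of up to 9.49% lay within the interval. Over all thinned primary cells the shares were 1.53%, 1.85%, 1.75% and 0.474%. All of these lie inside that interval, so 37 cells are too few to show that Col10a1 and these genes avoid each other.

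**Figure D3:**
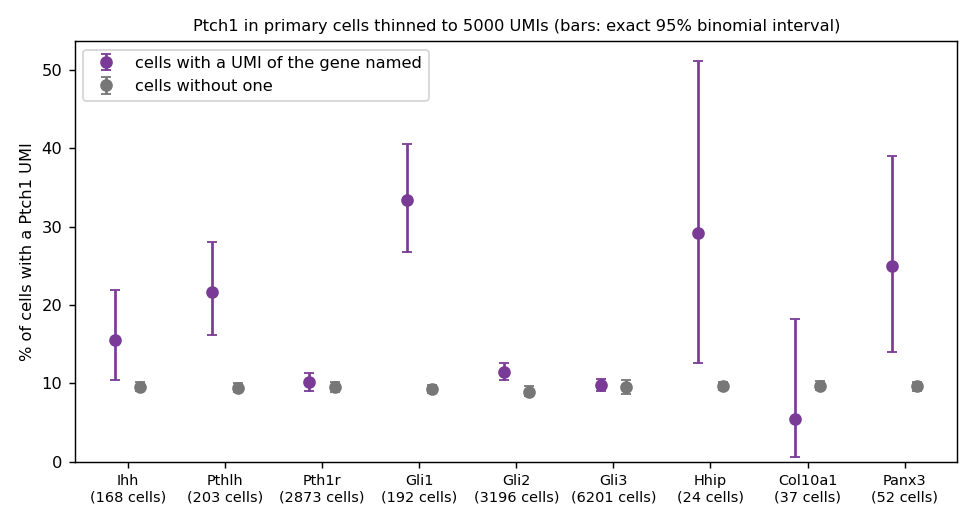
Share of primary cells with a Ptch1 UMI, in percent, among cells with and without a UMI of each other gene, after thinning to 5000 UMIs, with exact 95% binomial intervals. Cells with Gli1 (33.3%), Pthlh (21.7%) and Panx3 (25.0%) lie above those without, while those with Pth1r or Gli3 do not differ beyond the intervals. Shares are over all clusters together, so they include differences between clusters.

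Genes were ranked by their ratio between primary cells with and without each gene, over summed thinned counts and among genes with at least 10 CPM after thinning and at least 20 thinned UMIs. In the 203 cells with Pthlh these were Lgals1 (log2 ratio 2.99), Postn (2.94), Col1a1 (2.87), Tnn (2.83) and Thbs4 (2.71), matrix genes of perichondrium and tendon. Sfrp5 was 3.46 higher on the log2 scale but, like Runx3 and Wnt5b, lay under 10 CPM after thinning and was not ranked. Thbs4 and Col1a1 were also leading genes of cluster 7, which held only 37 of the 530 Pthlh counts. A few cells can carry such summed counts, and the ranking was not repeated without cluster 7, so it does not describe most cells with Pthlh. In the 168 cells with Ihh they were Orai2 (1.58), Ppa1 (1.44), Slc35f1 (1.36), H2-DMa (1.25) and Ptcd3 (1.24), and Col1a1 was lower at -5.09 (4.76 against 162 CPM), so that cells caught with the ligands differed in the collagen of fibrous tissue. Cells with Gli1 had more Slc35f1 (3.46), Lyn (2.46), Lama2 (2.44), Sh3kbp1 (2.33) and Lef1 (2.29), a WNT-responsive transcription factor. Cells with Ptch1 had more Thbs4 (1.81), Slc35f1 (1.74), Scgb1a1 (1.59), Postn (1.45) and Col1a1 (1.38). Cells with Panx3 had more Matn1 (3.03), a matrilin of maturing cartilage, Slc35f1 (2.85), Lama2 (2.28), Pkdcc (2.10) and Cpe (1.86). For Pth1r, Gli2 and Gli3, held by many cells, no ranked gene exceeded 0.57, 0.93 and 0.49. Among cells with at least 2 UMIs of the gene, Gpha2 reached 1.23 for Pth1r (455 cells) and 1.27 for Gli2 (844 cells), and Atg4a 0.51 for Gli3. These are ratios over cells of 1 library.

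The cultured cells fell into 10 clusters, 8 of them with at least 50 cells. Cluster 1 (1074 cells) was led by Klk8, cluster 2 (960 cells) by Sorbs2 and Ccser1, cluster 4 (757 cells) by the mitotic genes Aspm and Mki67, cluster 5 (668 cells) by Hmcn1 and Il1rl1, cluster 6 (550 cells) by Mmp13, Csmd1 and Sfrp4, cluster 7 (256 cells) by Nr5a2 and Barx1, and cluster 8 (183 cells) had Thy1 among its leading genes. Cluster 3 (856 cells) was shallow, with a median of 1273.5 UMIs. Leaving it out kept the same counts of genes at least 4-fold apart, 5 lower and 1 higher.

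Cultured cluster 6 was singled out for its Pth1r level, which is therefore a description. Pth1r stood there at 31.1 CPM (29.0 to 33.3) against 5.84 in the other cultured cells. The cluster held 824 of the 2596 counts (31.7%), and cluster 8 came next at 12.1 CPM (10.2 to 14.1). Beside it, 0 of the other 4 genes with at least 1 CPM in cultured CDSCs (Ptch1, Gli2, Gli3 and Col10a1) were 4-fold higher there, and 1.18% of 12092 genes were. Panx3, under 1 CPM in the library, had 3.51 CPM (2.83 to 4.30) against 0.557, and Col10a1 had 5.66 CPM (4.79 to 6.64) against 2.89. Of 17 hypertrophy and mineralization genes with at least 1 CPM, 4 were at least 4-fold higher in the same cells, with a median log2 ratio of 1.00. They were the collagenase Mmp13 (170 against 9.51 CPM), the phosphatase Alpl (6.38 against 0.599), bone sialoprotein Ibsp (8.26 against 0.978) and the receptor Fgfr3 (10.3 against 1.87). Of these 4, Alpl and Ibsp reached 1 CPM in the library only through this cluster, so the count leans on the cluster itself. Sp7, under 1 CPM in the library, had 4.90 against 0.323 CPM. Loxl4, a collagen cross-linking enzyme, was lower (7.70 against 14.5 CPM), and Wnt5b (log2 ratio 0.03) and Runx3 (0.49) were nearer to level. The highest Pth1r level over the clusters was 13.8 CPM when 30 principal components were used and 40.4 CPM at the finer resolution of 1.0, so its height depended on how the cells were grouped. Without clusters, the 208 thinned cells with Pth1r had Mmp13 higher by 3.45 (3.24 to 3.66) on the log2 scale, Cxcl1 by 2.43, Csmd1 by 2.29, Sfrp4 by 1.95 and Hp by 1.86, and Ibsp higher by 4.38 (3.25 to 5.52) on 15 counts in each group of cells. All 516 cultured Ibsp counts lay in 34 cells, with up to 119 in a cell. The Ibsp values thus rest on few cells, and the interval does not cover the spread between cells.

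Col10a1 was not confined to that cluster. It ranged from 1.01 CPM in cluster 7 to 5.66 CPM in cluster 6, with 4.05 CPM (3.56 to 4.60) in cluster 5, which held 23 of the 68 cells with 3 or more UMIs. None of the 78 thinned cells with Col10a1 held Pth1r (interval up to 4.62%), against 4.66% of the cells without. Their most raised genes were Mmp3 (2.96), a stromelysin, Acta1 (2.12), Mark1 (1.52), Dmd (1.39) and Hp (1.18).

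Ptch1 was highest in cluster 7, at 55.3 CPM (52.3 to 58.4), with cluster 4 next at 29.9 CPM (28.6 to 31.3). Gli1 had 0 counts in cluster 7, but only 4 in the whole cultured library. The 0 therefore cannot show whether Ptch1 and Gli1 differ in this cluster. Cells with Ptch1 had Barx1 higher by 0.95 (0.62 to 1.27) on the log2 scale. Hhip had 24 of its 44 counts in the mitotic cluster 4 and 15 in cluster 8, where it reached 1.17 CPM (0.653 to 1.93). Gli2 and Gli3 were highest in cluster 6, at 25.5 CPM and 270 CPM. The 27 Ihh and 38 Pthlh counts lay at or under 0.351 CPM in every cluster of at least 50 cells. In 9 haematopoietic-like cells (median 35946 UMIs), which should lack these genes, Gli3 had 74.0 CPM, Ptch1 14.8 CPM and Pth1r 7.40 CPM, and at 5000 UMIs 1 of 9 held Gli3 (11.1%, 0.281 to 48.2) and 0 held Ptch1 or Pth1r. By summed level, the intervals of Pth1r (1.53 to 21.6, 3 counts) and Ptch1 (5.43 to 32.2) included the cultured library levels of 7.86 and 26.5 CPM. That of Gli3 (49.9 to 106) lay below its library level of 151 CPM.

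**Figure D4:**
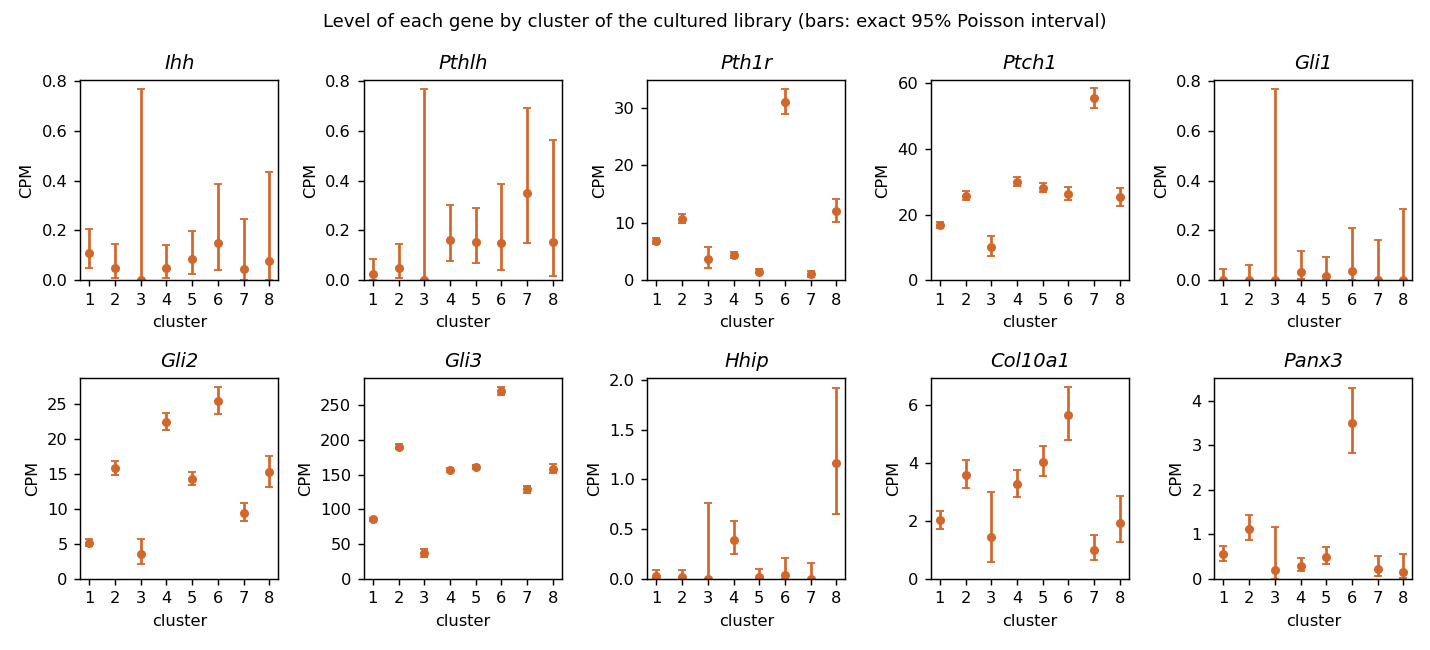
Level of each gene, in CPM, in the 8 cultured clusters of at least 50 cells, with exact 95% Poisson intervals. Pth1r (31.1 CPM) and Panx3 (3.51 CPM) peak in cluster 6 and Ptch1 (55.3 CPM) in cluster 7, while Ihh, Pthlh and Gli1 stay near 0 throughout.

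The other genes of these pathways were taken from lists of known members. Among genes that release or receive Hedgehog ligands, 4 of 10 tested were at least 4-fold lower in cultured CDSCs and 0 higher, with a median log2 ratio of -1.54. The lower genes were the ligand-releasing Scube1 (18.8 to 1.88 CPM), Scube2 (11.6 to 1.24 CPM) and Scube3 (31.8 to 0.939 CPM), and the co-receptor Boc (107 to 25.7 CPM). The signal transducer Smo had 57.5 and 83.4 CPM, a log2 ratio of 0.54. Of 15 genes that carry the signal inside the cell, such as Sufu (0.11) and Kif7 (0.19), 0 were 4-fold apart in either direction, with a median of 0.50. Of 14 genes of the primary cilium, on which the pathway runs, 1 was higher (Rpgrip1l, 2.50), and the median of 0.05 turned to -0.14 by TMM scaling.

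Hedgehog target genes differed in both directions, with 4 of 8 tested higher and 2 lower, and a median of 1.46. Of all genes tested, 12.6% were higher and 7.48% lower. Higher were the cyclins Ccnd1 (11.6 to 368 CPM) and Ccnd2 (150 to 989 CPM) and the sclerotome factors Pax1 (0.0510 to 5.10 CPM) and Pax9 (0.175 to 1.59 CPM). Pax1 and Pax9 were tested only because they reached 1 CPM in cultured CDSCs. Lower were the survival gene Bcl2 (82.6 to 8.74 CPM) and the transcription factor Foxc2 (56.0 to 12.0 CPM). Ccnd1 and Ccnd2 also respond to other growth signals. On the PTHrP side, 0 of 17 genes downstream of the receptor were 4-fold apart, with a median of 0.26. Gnas, which couples Pth1r to cAMP, had a log2 ratio of -0.76, Hdac4 -0.57 and Zfp521 -0.06, so that these genes stayed within 4-fold while ligand and receptor did not. Pth itself had 0 counts in both libraries.

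Among 21 hypertrophy and mineralization genes, 8 were at least 4-fold lower and 3 higher, with a median of -1.38. The higher genes were Mmp13 (0.153 to 22.4 CPM), Ibsp (0.0292 to 1.56 CPM, from 4 counts to 516 in only 34 cells) and osteopontin, Spp1 (53.1 to 6573 CPM). The lower genes were Foxa3 (-10.65), Bmp6 (-7.03), Scin (-7.03), Fgfr3 (-5.91), Enpp1 (-2.70), Smpd3 (-2.56), Foxa2 (-2.52) and Loxl4 (-2.28). Runx2, a transcription factor of hypertrophy and bone, had 110 and 112 CPM. Col10a1 was thus higher alongside a few late genes, while Foxa2 and Foxa3, which drive hypertrophic genes in the growth plate, were lower.

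Among other short-chain collagens and channel proteins were Col8a1 (45.4 to 211 CPM), Panx1 (0.846 to 7.85 CPM) and the connexin Gja1 (19.8 to 159 CPM), 3 of 4 tested being at least 4-fold higher with a median of 2.61. The fourth, Col8a2, was lower by just under 4-fold (48.2 to 12.1 CPM). Of 11 genes of the resting zone and perichondrium, where Pthlh is made, 8 were lower and 2 higher, with a median of -2.97. Ucma went from 6737 to 1.496 CPM, Wif1 from 418 to 1.18 CPM and Sfrp5 from 3.32 to 0.00303 CPM. Apoe, Prg4, Clu, Cytl1 and Cxcl14 were also lower, and Grem1 (30.1 to 1091 CPM) and Barx1 (0.146 to 23.6 CPM) were higher. Over all 95 list genes tested, 22 were lower and 13 higher, beside the background of 7.48% and 12.6%.

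**Figure D5:**
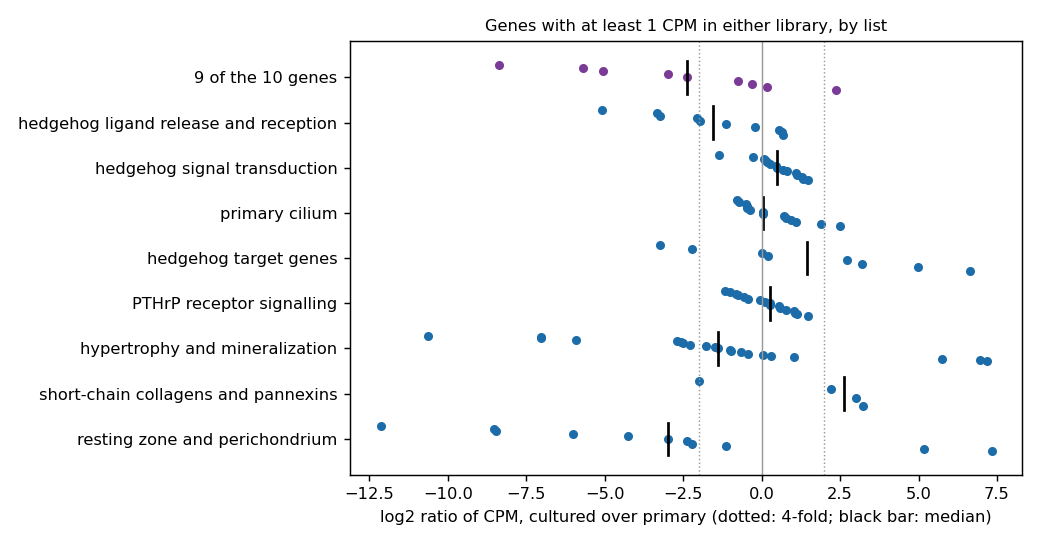
Log2 ratio of cultured over primary CPM for 9 of the 10 genes (top) and for the genes of each list with at least 1 CPM in either library, with black bars for medians and dotted lines at 4-fold. The signal transduction, cilium and PTHrP receptor signalling genes sit between the dotted lines with 1 exception (Rpgrip1l), while hypertrophy and resting zone genes reach far to both sides.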

How the data were processed

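Single-cell RNA-seq of 1 primary and 1 cultured CDSC library was analysed. The files hold unnormalised UMI counts of genes in barcodes, deposited as the authors' output of Cell Ranger 7.0.0, with mm10/GRCm38 and GRCm39 both named in the submitters' processing notes. Whether intronic reads were counted is not given in the sources used here. The study's own cell thresholds were not given.

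Counts were summed over cells and scaled to CPM. A ratio raised counts under 3 to 3 and was called at 4-fold where either library reached 1 CPM. Intervals were exact Poisson, Clopper-Pearson and conditional. Scrublet's automatic threshold called 0 primary and 1 cultured doublet and had not worked, so doublets were kept, and an alternative left out the 1118 and 461 cells with the highest scores. Each library was clustered (scanpy 1.11.5, leidenalg 0.10.2, resolution 0.5, 20 neighbours, 10 components, 2000 variable genes). TMM factors came from edgeR 4.0.16. Coordinates came from GENCODE (GRCm38). Ratios and thinning were tested on simulated data.

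The 10 genes and the lists were chosen with earlier results of these data known. Named are the 10 genes, list genes with at least 1 CPM (4-fold first, then by level), and up to 5 genes with the highest ratio in cells with a gene, among those with at least 10 CPM after thinning and 20 thinned UMIs.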

Additional observations from a re-analysis of the deposited data

How the results depend on the processing

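No paired analysis was possible because each group had 1 library and no test was run. Alternatives were no doublets, only cells with at least 5000 UMIs, a stricter cell filter, every barcode, TMM scaling, totals without mitochondrial and ribosomal protein genes, and equal weight per cell; added after seeing the data were leaving out the shallow cultured cluster 3 and the primary cluster 6. Under all 9, Ihh, Pthlh, Pth1r, Gli1 and Gli2 stayed at least 4-fold lower and Col10a1 at least 4-fold higher. With a minimum of 10 CPM, only 4 of the 10 genes were tested, of which 2 were at least 4-fold lower and 0 higher. No share of all genes at that minimum stands beside this count. Of the cells with at least 2 thinned Gli1 UMIs, 42.9% (17.7 to 71.1, 6 of 14 cells) held Ptch1. Among values that answer a comparison, 47 alternatives stayed within the limits and 3 moved, and among single genes 219 stayed and 59 moved, most of them shares at other thinning depths. Ptch1 moved to 0.48 and Panx3 to 0.27 on the log2 scale without primary cluster 6. The depth limits Gli1 and Ihh in the cultured library, with 4 and 27 counts.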

Other observations

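The short tail of highly positive cells was where some of the 10 genes concentrated. Panx3 reached 3 or more UMIs in 10 primary cells, 9 of them in cluster 6, and in 15 cultured cells, 10 of them in cluster 6 of that library. Gli1 reached this level in 20 primary cells, 14 of them in cluster 6, and Ptch1 in 235 primary cells, 96 of them in cluster 6. In the cultured library, 314 cells held 3 or more Pth1r UMIs, 114 of them in cluster 6, and 3 did so in cluster 5. These numbers were not corrected for depth.

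Cells with Panx3 and cells with Gli1 shared raised genes in the primary library. Runx3 was higher by 3.28 (2.62 to 3.87) on the log2 scale in cells with Panx3 and by 3.15 (2.77 to 3.50) in cells with Gli1, and Wnt5b by 3.64 (2.99 to 4.22) and 2.34 (1.82 to 2.83). Sfrp5 set them apart, with 53.1 CPM in cells with Gli1, and 0 thinned counts in cells with Panx3 against 215 in the other cells. Cells with Col10a1 (37 cells) had more Grem1 (2.55, 1.94 to 3.10) and less Clu (-2.54, -3.20 to -1.95), the reverse of cells with Pthlh, which had less Grem1 (-2.12) and more Clu (0.90). All these are descriptions over cells of 1 library.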
